A study of Mus musculus with 12 samples.

Results

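The genes of cholesterol and fatty acid synthesis were read in mouse embryonic stem (ES) cells and in the extraembryonic endoderm-like (XEN-like) cells derived from them, with and without *Sox7*. The list held 41 names, and a gene was taken where the gene name of an array probe equalled a listed name. It was on the array as 40 genes with 59 probes, out of 34836 gene names and 55681 probes in all, since *Msmo1* was present there only under its older name *Sc4mol*. Of these, 39 genes with 56 probes had signal clearly over background on every array of some group and could be tested, beside 19002 genes and 25950 probes of the whole array. The remaining gene, *Lcat*, which esterifies cholesterol on plasma lipoproteins, was not above background on any of the 12 arrays.

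Each of the 4 groups had 3 arrays, and all cells carried Gata6GR, full-length *Gata6* joined to the ligand-binding domain of the glucocorticoid receptor, which dexamethasone (Dex) sends into the nucleus. The groups were *Sox7* (+/−) ES cells and *Sox7* (−/−) ES cells at day 4 without Dex, and the XEN-like cells of both genotypes after 4 days with Dex. Each genotype was a cell line from 1 targeted clone, with the null line selected out of the heterozygous line, so that genotype and clone cannot be told apart. No array here held Dex-treated cells lacking Gata6GR, so that a response to Dex and a response to Gata6GR cannot be told apart either, and Gata6GR was driven by the broadly active CAG promoter.

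Cholesterol is built from acetyl-CoA, first through mevalonate to squalene and then through lanosterol and a series of sterol intermediates. Transcription of nearly all of these enzymes is controlled by SREBP proteins, which the escort protein Scap carries to the Golgi for cleavage when membrane sterol is low and which the Insig proteins hold back in the endoplasmic reticulum when sterol is plentiful. The same family of factors drives fatty acid synthesis and desaturation, while LXR receptors sense oxysterols and drive cholesterol efflux. Yolk sac endoderm, which like parietal endoderm derives from primitive endoderm, is known for handling and exporting lipid for the embryo. The paper describes cells made from ES cells by forced *Gata6* expression as able to contribute to parietal endoderm.

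Levels are given as the background-subtracted signal of a probe in multiples of the 75th percentile of its array, and levels of different genes are not compared. The 75th percentile lay between 252.3 and 415.9 intensity units and no spot was saturated. *Sox7* itself read 2.18 to 2.29 in *Sox7* (+/−) ES cells and 4.90 to 6.88 in *Sox7* (+/−) XEN-like cells, and was not above background on any of the *Sox7* (−/−) arrays. The *Gata6* probe read 12.85 to 13.37 in *Sox7* (+/−) ES cells and 18.18 to 20.05 in *Sox7* (−/−) ES cells. It read 18.44, 19.84 and 10.71 in *Sox7* (+/−) XEN-like cells and 23.7 to 25.08 in *Sox7* (−/−) XEN-like cells. *Gata6* was thus higher without *Sox7*, by 0.53 (ES) and 0.62 (XEN-like) on the log2 scale (limma adjusted p = 0.042 and 0.028). Whether this probe reads Gata6GR, the endogenous gene or both was not tested. Among replicates of a group, Pearson's r across probes was 0.9823 to 0.9965. No label says that the replicates were separate cultures, so p-values measure only the spread between these arrays, which may be technical. *Sox7* (+/−) XEN-like replicate 3 stood apart from its group, whose median SD was 0.20 on the log2 scale against 0.09 to 0.11 in the other groups. Slide 1 held all 3 arrays of *Sox7* (−/−) ES cells and replicate 1 of *Sox7* (−/−) XEN-like cells and slide 2 the other 8 arrays. Of 10 ES cell markers, 7 were called lower and *Klf4* higher with Dex in *Sox7* (+/−) cells, and 8 were called lower in *Sox7* (−/−) cells. *Nanog*, *Sox2* and *Fgf4* were not above background in XEN-like cells, while the summed level of the 10 was 836 to 1270 in ES cells and 582 to 738 in XEN-like cells. Such sums weigh the brightest probes most. The median log2 difference of the 10 with Dex was −4.9 in *Sox7* (+/−) cells and −4.7 in *Sox7* (−/−) cells. In turn, the summed level of 11 extraembryonic endoderm markers was 451 to 647 in ES cells and 2010 to 2520 in XEN-like cells.

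Promoter sequences are shown for the members whose Dex response differed between the genotypes by more than 2-fold, as far as a promoter was at hand. They were taken by gene symbol from RefSeq on GRCm38.p6, cover 250 bases before and 50 bases after a start of transcription, and were found for 31 of the 40 genes. The motifs searched on both strands were the sterol regulatory element TCACNCCAC, the E-box CACGTG and the NF-Y box CCAAT, none of which overlapped in the sequences printed, and their matches are in capitals. The windows are chr5:28071162-28071461 on the plus strand for *Insig1*, chr7:143823149-143823448 and chr7:143829964-143830263 on the plus strand for the 2 of 3 *Dhcr7* starts that held a match, chr5:4104648-4104947 on the minus strand for *Cyp51*, chr13:119690101-119690400 on the plus strand for *Hmgcs1*, chr8:64733529-64733828 on the minus strand for *Sc4mol*, and chr13:8885356-8885655 on the plus strand for *Idi1*.
Insig1: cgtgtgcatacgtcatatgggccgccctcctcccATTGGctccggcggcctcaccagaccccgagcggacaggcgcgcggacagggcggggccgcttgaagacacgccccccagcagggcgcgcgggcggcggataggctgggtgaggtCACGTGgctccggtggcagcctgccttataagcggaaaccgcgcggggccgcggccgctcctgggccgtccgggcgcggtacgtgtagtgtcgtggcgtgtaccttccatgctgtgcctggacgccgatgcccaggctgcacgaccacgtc
Dhcr7, start 2: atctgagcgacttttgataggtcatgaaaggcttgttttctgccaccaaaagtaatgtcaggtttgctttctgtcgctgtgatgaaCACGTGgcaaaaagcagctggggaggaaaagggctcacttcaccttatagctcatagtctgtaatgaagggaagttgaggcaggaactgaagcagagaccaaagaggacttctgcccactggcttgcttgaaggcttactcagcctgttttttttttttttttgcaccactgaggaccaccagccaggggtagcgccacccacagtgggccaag
Dhcr7, start 3: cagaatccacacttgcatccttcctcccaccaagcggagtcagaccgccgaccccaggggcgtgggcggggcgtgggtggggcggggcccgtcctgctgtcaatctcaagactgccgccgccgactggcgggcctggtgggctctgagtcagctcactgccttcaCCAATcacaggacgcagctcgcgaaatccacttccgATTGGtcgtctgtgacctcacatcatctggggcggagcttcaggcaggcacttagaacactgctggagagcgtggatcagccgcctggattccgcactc
Cyp51: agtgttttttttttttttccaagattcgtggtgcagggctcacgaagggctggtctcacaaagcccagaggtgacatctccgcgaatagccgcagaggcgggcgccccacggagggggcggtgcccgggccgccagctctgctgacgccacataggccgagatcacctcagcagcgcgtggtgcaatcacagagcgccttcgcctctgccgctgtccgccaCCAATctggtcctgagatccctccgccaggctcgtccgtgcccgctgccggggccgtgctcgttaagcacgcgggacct
Hmgcs1: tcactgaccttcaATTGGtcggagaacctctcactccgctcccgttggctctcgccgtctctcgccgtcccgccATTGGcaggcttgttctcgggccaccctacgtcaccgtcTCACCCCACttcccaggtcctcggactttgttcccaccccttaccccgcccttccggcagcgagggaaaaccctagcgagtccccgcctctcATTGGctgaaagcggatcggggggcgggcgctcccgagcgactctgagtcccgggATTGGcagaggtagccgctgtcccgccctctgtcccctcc
Sc4mol: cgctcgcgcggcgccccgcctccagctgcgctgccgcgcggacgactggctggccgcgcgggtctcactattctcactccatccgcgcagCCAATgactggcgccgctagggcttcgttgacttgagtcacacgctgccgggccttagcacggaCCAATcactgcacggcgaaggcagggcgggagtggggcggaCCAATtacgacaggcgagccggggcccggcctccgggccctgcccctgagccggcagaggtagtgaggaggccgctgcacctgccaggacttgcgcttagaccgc
Idi1: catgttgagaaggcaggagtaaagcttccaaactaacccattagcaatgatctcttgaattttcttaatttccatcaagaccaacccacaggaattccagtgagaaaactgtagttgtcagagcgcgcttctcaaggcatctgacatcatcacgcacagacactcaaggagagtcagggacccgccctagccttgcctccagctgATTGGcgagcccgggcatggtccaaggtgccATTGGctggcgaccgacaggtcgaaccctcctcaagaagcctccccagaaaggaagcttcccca

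Of the 31 genes with a promoter, only *Hmgcs1* held the sterol regulatory element within the window, as TCACCCCAC with its first base at position -137 from the start. This was 3.23% of the members, against 1.44% of all 27025 genes in the table. A gene was counted if any of its windows held the motif. The E-box was in 6 of the 31 genes (*Abca1*, *Dhcr7*, *Hsd17b7*, *Insig1*, *Sc5d* and *Scap*), which is 19.4% against 8.09% of all genes. The NF-Y box was in 24, which is 77.4% against 41.1%, and the Sp1 box GGGCGG in 23, which is 74.2% against 38.2%. No member held the DR4 motif of LXR, against 0.0148% of all genes. These shares describe the letters in the windows, and no test of them was made.

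**Figure D1:**
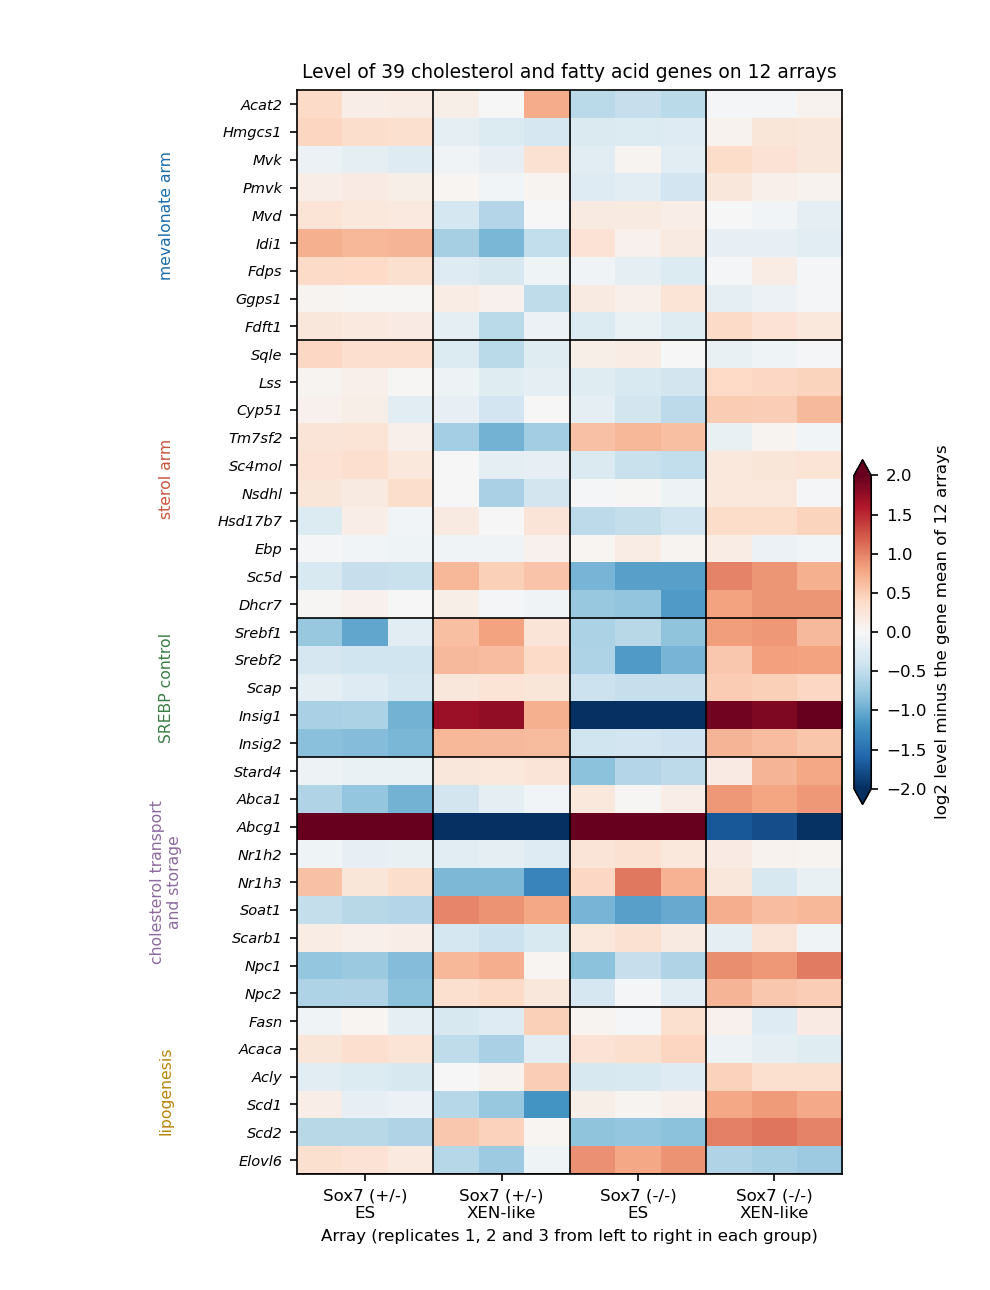
Level of the 39 tested genes (rows, grouped by role) on each of the 12 arrays (columns), as the log2 level minus the gene's mean over 12 arrays, with colours ending at 2 in either direction. The rows of both synthesis arms mostly turn bluer from ES to XEN-like cells in *Sox7* (+/−) and redder in *Sox7* (−/−), whereas *Insig1*, *Soat1*, *Npc1* and *Scd2* are redder in XEN-like cells of both genotypes.

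In *Sox7* (+/−) cells, 10 of the 19 enzymes of cholesterol synthesis were lower in XEN-like cells than in ES cells, while all 5 genes of SREBP control were higher. Calls required more than a 2-fold change and p under 0.05 in limma after Benjamini-Hochberg adjustment. By this rule 5 members were higher with Dex (*Insig1*, *Insig2*, *Npc1*, *Soat1* and *Srebf1*), against 11% of all genes tested, and 3 were lower (*Abcg1*, *Idi1* and *Nr1h3*), against 14.1%. Of the 19 tested enzymes of both synthesis arms, 10 fell at an adjusted p under 0.05 whatever the size, against 25.5% of all genes, and *Sc5d* alone rose, against 38.5%. Their median log2 difference was −0.24, beside 0.16 over all genes tested. With the arrays scaled by spike-in controls the median of all probes moved from 0.16 to −0.34 and the calls from 5 higher and 3 lower to 2 higher and 12 lower, and with the deposited table as it stands to 1 higher and 9 lower. Relative to the median of all probes, which no scaling by 1 constant per array can change, 16 of the 19 enzymes were on the lower side. Without *Sox7* (+/−) XEN-like replicate 3, 8 members were called higher, the additional 3 being *Npc2*, *Scd2* and *Srebf2*, and 10 enzymes still fell.

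In *Sox7* (−/−) cells, 11 of the 19 enzymes rose with Dex, 2 of them by more than 2-fold. Here 10 members were called higher (*Dhcr7*, *Insig1*, *Insig2*, *Npc1*, *Sc5d*, *Scd2*, *Soat1*, *Srebf1*, *Srebf2* and *Stard4*), against 14.6% of all genes, and 2 lower (*Abcg1* and *Elovl6*), against 14.1%. The 11 were counted at an adjusted p under 0.05 whatever the size, against 34.4% of all genes, and *Idi1* and *Tm7sf2* fell, against 31.8%. Their median log2 difference was 0.43, beside 0.07 over all genes tested. All *Sox7* (−/−) ES arrays were on slide 1, with only replicate 1 of the XEN-like arrays of that genotype. With slide as a block the median of the 19 was 0.49, which rests on that replicate.

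Whether the response to Dex differed between genotypes was tested directly, as the response of *Sox7* (−/−) cells minus that of *Sox7* (+/−) cells. It was above 2-fold with an adjusted p under 0.05 in 7 members (*Insig1*, *Dhcr7*, *Scd1*, *Cyp51*, *Hmgcs1*, *Sc4mol* and *Idi1*), against 7.04% of all genes, and in the other direction in none, against 3.16%. With spike-in scaling or the deposited table as it stands, 16 members were called higher, and the median of all probes was 0.31 and 0.24 in place of −0.09. At any size it was higher in 13 of the 19 enzymes, against 13.1% of all genes, and lower in 0 of them, against 15.7%. The median over the 19 enzymes was 0.77, beside −0.10 over all genes. With slide as a block this median was 0.73 and 10 of the 19 enzymes were higher. Slide and the response of *Sox7* (−/−) cells were separated there only through XEN-like replicate 1. The 4 comparisons of groups that underlie the difference in response share arrays, and each is given with its own values below.

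**Figure D2:**
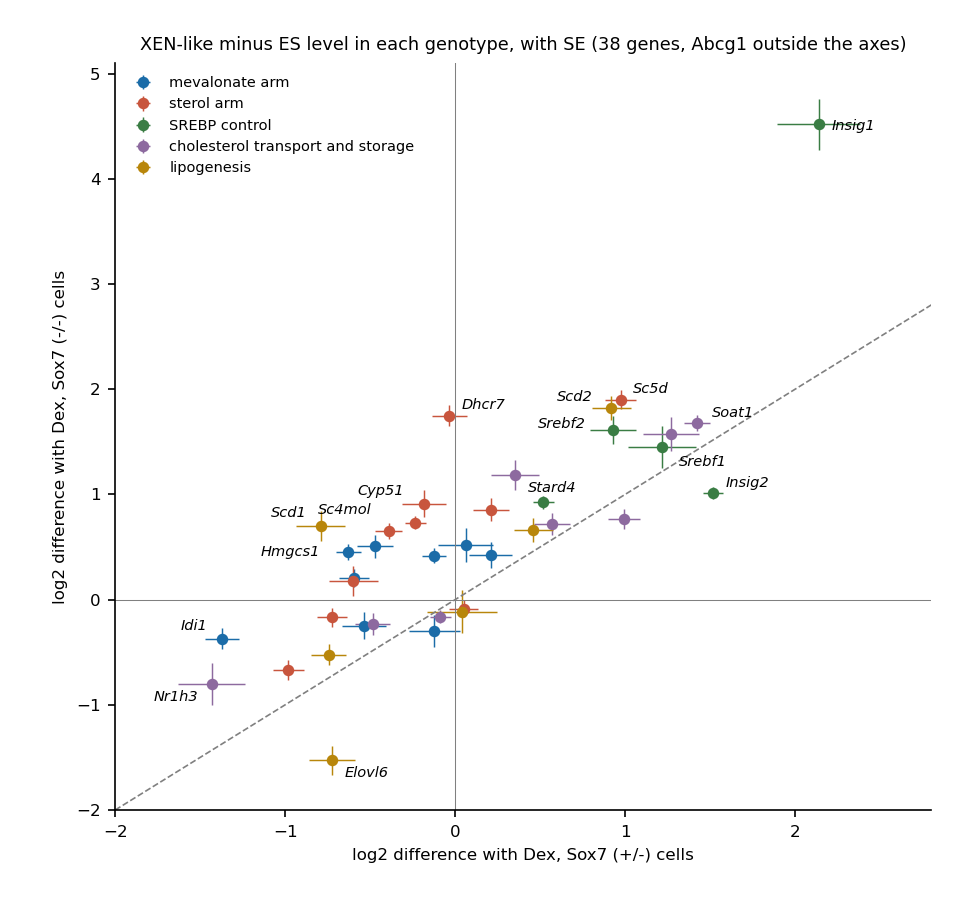
XEN-like minus ES level on the log2 scale in *Sox7* (+/−) cells (x axis) and in *Sox7* (−/−) cells (y axis) for 38 genes, coloured by role, with bars for the SE of each difference and a dashed line where both are equal. *Insig1* is farthest to the upper right at 2.14 and 4.52, *Dhcr7* lies at −0.03 and 1.75, and most synthesis enzymes lie above the line. *Abcg1*, at −4.93 and −4.35, is outside the axes.

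Between ES cells of the 2 genotypes, 13 of the 19 enzymes were lower without *Sox7*, each by less than 2-fold. Only *Insig1* was called past 2-fold, as lower, against 6.63% of all genes, and no member was called higher, against 1.96%. These 13 were counted at any size, against 16.5% of all genes, and *Tm7sf2* was higher, against 30%, with a median log2 difference of −0.40 beside 0.11 over all genes. The ES arrays of the genotypes lay on different slides, so that slide can be separated from genotype only through the *Sox7* (−/−) XEN-like arrays. With slide as a block the median of the 19 was −0.43 and 5 of them still passed the test. In *Sox7* (−/−) ES cells the summed level of 14 visceral endoderm markers was 55.9 to 62.3, against 92.0 to 93.9 in *Sox7* (+/−) ES cells. *Afp*, *Ttr*, *Apoa4* and *Apob* were not above background in the former only, and *Apoa1* in neither. The summed level of 6 trophectoderm markers was 1.96 to 1.99 against 4.68 to 4.72. The ES cell markers summed to 1150 to 1270 against 836 to 853, with *Esrrb*, *Klf4* and *Zfp42* called higher, the extraembryonic endoderm markers to 451 to 497 against 633 to 647, and the parietal endoderm markers to 855 to 943 against 1010 to 1050, with 4 of 8 called lower. The part of these cells in the result was not tested, and in bulk RNA fewer cells of a type and less RNA per cell cannot be told apart.

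Between XEN-like cells of the 2 genotypes, 12 of the 19 enzymes were higher without *Sox7*, each by less than 2-fold. *Scd1* and *Abca1* were called higher without *Sox7*, against 4.15% of all genes, and no member was called lower, against 3.41%. These 12 were counted at any size, against 20.2% of all genes, and 0 were lower, against 15.1%. Their median log2 difference was 0.30 beside 0.01. Among the 5 arrays of slide 2 alone the median of the 19 was also 0.30, and 3 of them passed the test. In *Sox7* (−/−) XEN-like cells the summed level of the visceral endoderm markers was 240 to 261, against 69.0 to 77.6 in *Sox7* (+/−) XEN-like cells, and 9 of the 12 markers tested were called higher, with *Apoa1* and *Apob* not above background there. That of the trophectoderm markers was 5.05 to 5.84 against 1.75 to 2.60, with 4 of 5 called higher, and that of 8 parietal endoderm markers was 1680 to 1790 against 1890 to 2110. The part of such cells in the lipid genes was not tested.

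**Figure D3:**
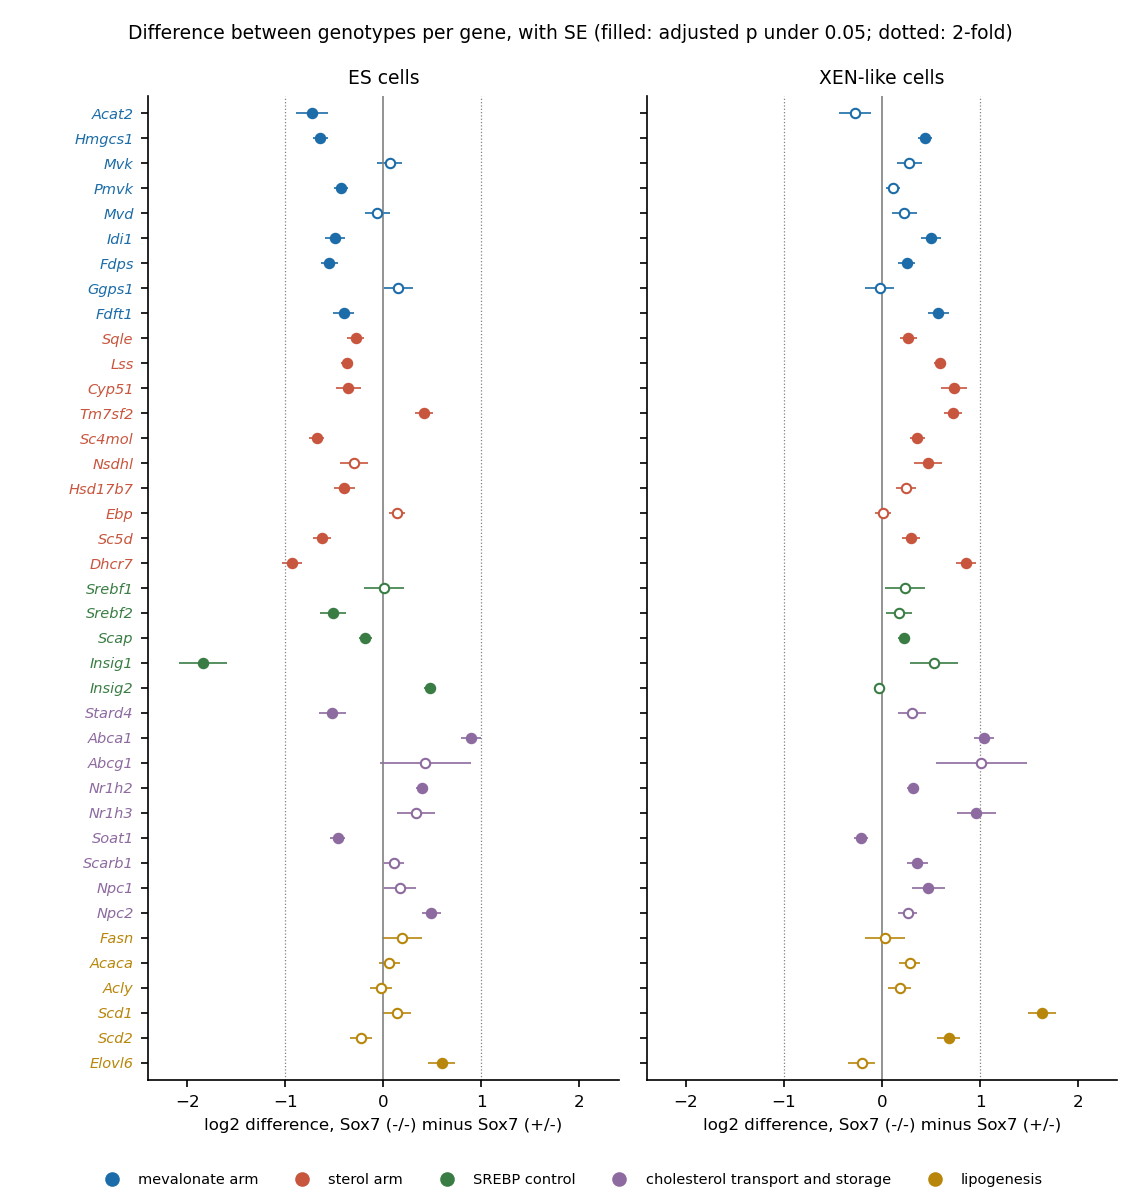
*Sox7* (−/−) minus *Sox7* (+/−) level on the log2 scale, with its SE, for each of the 39 genes in ES cells (left) and in XEN-like cells (right), coloured by role. Filled points have an adjusted p under 0.05 and dotted lines mark 2-fold. In ES cells 13 of the 19 enzymes are filled on the left of zero and in XEN-like cells 12 are filled on the right of it.

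In the mevalonate arm, which leads from acetyl-CoA to squalene, the summed level of the 9 genes was 112 to 118 in *Sox7* (+/−) ES cells, 83.3 to 96.5 in *Sox7* (+/−) XEN-like cells, 84.4 to 90.7 in *Sox7* (−/−) ES cells and 106 to 111 in *Sox7* (−/−) XEN-like cells. *Hmgcs1*, which makes HMG-CoA, read 26.7, 25.3 and 24.8 on the *Sox7* (+/−) ES arrays, 17.6, 16.5 and 15.7 on the *Sox7* (+/−) XEN-like arrays, 16.3, 16.4 and 16.5 on the *Sox7* (−/−) ES arrays, and 20.8, 23.4 and 23.2 on the *Sox7* (−/−) XEN-like arrays. Its *Sox7* (+/−) ES arrays were the highest of the 12, and no pair of groups compared overlapped. With Dex it changed by −0.63 ± 0.07 (log2 difference ± SE, adjusted p = 2.9e-05) in *Sox7* (+/−) cells and by 0.45 ± 0.07 (adjusted p = 0.00026) in *Sox7* (−/−) cells. The difference of 1.08 ± 0.10 had an adjusted p of 4.6e-05. With slide as a block it was 0.97, below 2-fold.

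*Idi1*, which interconverts the isoprenoid units, read 8.02, 7.74 and 7.79 in *Sox7* (+/−) ES cells, 3.099, 2.59 and 3.48 in *Sox7* (+/−) XEN-like cells, 5.96, 5.20 and 5.56 in *Sox7* (−/−) ES cells, and 4.36, 4.35 and 4.20 in *Sox7* (−/−) XEN-like cells. All XEN-like arrays were below all ES arrays. It fell by 1.37 ± 0.10 on the log2 scale (adjusted p = 1.0e-06) in *Sox7* (+/−) cells and by 0.37 ± 0.10 (adjusted p = 0.0081) in *Sox7* (−/−) cells. The difference of 1.001 ± 0.142 (adjusted p = 7e-04) stood at the 2-fold limit and was under it in 8 of the alternatives, at 0.89 to 0.99.

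*Fdft1*, squalene synthase, read 5.53, 5.44 and 5.31 in *Sox7* (+/−) ES cells and 4.18, 3.27 and 4.38 in *Sox7* (+/−) XEN-like cells. It read 3.93, 4.35 and 4.02 in *Sox7* (−/−) ES cells and 6.20, 5.80 and 5.47 in *Sox7* (−/−) XEN-like cells. The groups did not overlap within either genotype, and the order of ES and XEN-like cells was opposite in the 2 genotypes. The changes with Dex were −0.47 ± 0.11 (adjusted p = 0.0031) and 0.51 ± 0.11 (adjusted p = 0.0018), and their difference of 0.98 ± 0.15 (adjusted p = 0.0011) was just under 2-fold. Among the other 6 genes of the arm, *Fdps*, which makes farnesyl diphosphate, and *Pmvk*, phosphomevalonate kinase, also differed between the genotypes in their response, by 0.80 ± 0.12 (adjusted p = 0.0011) and 0.54 ± 0.10 (adjusted p = 0.0031). The acetyl-CoA thiolase *Acat2*, the mevalonate kinase *Mvk*, the decarboxylase *Mvd* and the geranylgeranyl diphosphate synthase *Ggps1* gave 0.46, 0.22, 0.29 and −0.18, none of which passed the test.

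In the sterol arm, which leads from squalene to cholesterol, 8 of 10 genes differed between the genotypes in their Dex response at an adjusted p under 0.05, all towards higher in *Sox7* (−/−) cells, against 13.1% of all genes. *Dhcr7*, a sterol reductase that gives cholesterol, read 0.848, 0.886 and 0.823 in *Sox7* (+/−) ES cells and 0.901, 0.808 and 0.790 in *Sox7* (+/−) XEN-like cells. It read 0.493, 0.478 and 0.378 in *Sox7* (−/−) ES cells and 1.44, 1.54 and 1.53 in *Sox7* (−/−) XEN-like cells. The *Sox7* (+/−) groups overlapped each other and lay between the *Sox7* (−/−) groups on every array. Its change with Dex was −0.03 ± 0.10 (adjusted p = 0.79) in *Sox7* (+/−) cells and 1.75 ± 0.10 (adjusted p = 1.4e-07) in *Sox7* (−/−) cells. The difference of 1.78 ± 0.15 (adjusted p = 1.7e-05) was made up of −0.93 ± 0.10 (adjusted p = 8.1e-05) between ES cells and 0.85 ± 0.10 (adjusted p = 0.00021) between XEN-like cells. Its windows printed above hold the E-box at start 2 and 2 NF-Y boxes at start 3.

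*Cyp51*, the lanosterol demethylase, read 0.834, 0.853 and 0.680 in *Sox7* (+/−) ES cells and 0.702, 0.602 and 0.784 in *Sox7* (+/−) XEN-like cells, which overlapped. It read 0.690, 0.610 and 0.544 in *Sox7* (−/−) ES cells and 1.12, 1.11 and 1.23 in *Sox7* (−/−) XEN-like cells, the highest of the 12. The change with Dex was −0.18 ± 0.13 (adjusted p = 0.24) and 0.91 ± 0.13 (adjusted p = 1.1e-04), and the difference was 1.09 ± 0.18 (adjusted p = 0.0018). It was under 2-fold in 3 alternatives, at 0.88 with normexp background correction, 0.93 with the deposited table scaled by the 75th percentile and 0.99 without *Sox7* (+/−) XEN-like replicate 2. *Sc4mol*, the sterol C4-methyl oxidase, read 15.7, 16.2 and 14.9 in *Sox7* (+/−) ES cells, 12.9, 11.3 and 11.5 in *Sox7* (+/−) XEN-like cells, 10.6, 9.42 and 9.18 in *Sox7* (−/−) ES cells, and 15.0, 15.3 and 15.5 in *Sox7* (−/−) XEN-like cells. It was lowest in *Sox7* (−/−) ES cells, and the groups that were compared did not overlap. It changed by −0.39 ± 0.08 (adjusted p = 0.0014) and 0.65 ± 0.08 (adjusted p = 3.4e-05), a difference of 1.04 ± 0.11 (adjusted p = 1.0e-04).

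*Sqle*, the squalene epoxidase, read 19.4, 18.4 and 18.4 in *Sox7* (+/−) ES cells, 11.98, 9.98 and 12.3 in *Sox7* (+/−) XEN-like cells, 15.8, 16.1 and 14.4 in *Sox7* (−/−) ES cells, and 13.2, 13.8 and 14.1 in *Sox7* (−/−) XEN-like cells. The ES arrays were above the XEN-like arrays in both genotypes. It fell by 0.72 ± 0.09 (adjusted p = 4.4e-05) in *Sox7* (+/−) cells, whereas in *Sox7* (−/−) cells the difference was −0.17 ± 0.09 (adjusted p = 0.11). These responses differed by 0.55 (adjusted p = 0.0088). *Sc5d*, the lathosterol desaturase, read 2.61, 2.35 and 2.39 in *Sox7* (+/−) ES cells, 5.12, 4.49 and 4.82 in *Sox7* (+/−) XEN-like cells, 1.70, 1.53 and 1.52 in *Sox7* (−/−) ES cells, and 6.46, 5.995 and 5.31 in *Sox7* (−/−) XEN-like cells. It was the enzyme of the arm that rose in both genotypes, with all XEN-like arrays above all ES arrays. The rise was 0.97 ± 0.09 (adjusted p = 7.1e-06) and 1.90 ± 0.09 (adjusted p = 3.5e-08).

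Of the other 5 genes of the sterol arm, 3 also differed between the genotypes in their response. *Lss*, lanosterol synthase, changed by −0.24 with Dex in *Sox7* (+/−) cells and by 0.73 in *Sox7* (−/−) cells, a difference of 0.97 ± 0.09 (adjusted p = 3.8e-05). *Nsdhl* and *Hsd17b7*, which take part in C4 demethylation, differed by 0.77 ± 0.20 (adjusted p = 0.018) and 0.64 ± 0.15 (adjusted p = 0.010). Of the dimmer *Hsd17b7* probes, one above background on all 12 arrays gave 0.96 (adjusted p = 0.0021). Another, above background on 6 arrays, gave −1.10 in place of 0.64. *Tm7sf2*, a sterol C14 reductase, fell in both genotypes, by 0.98 and 0.67, and *Ebp*, the sterol isomerase, gave 0.05 and −0.09, neither of which passed the test.

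**Figure D4:**
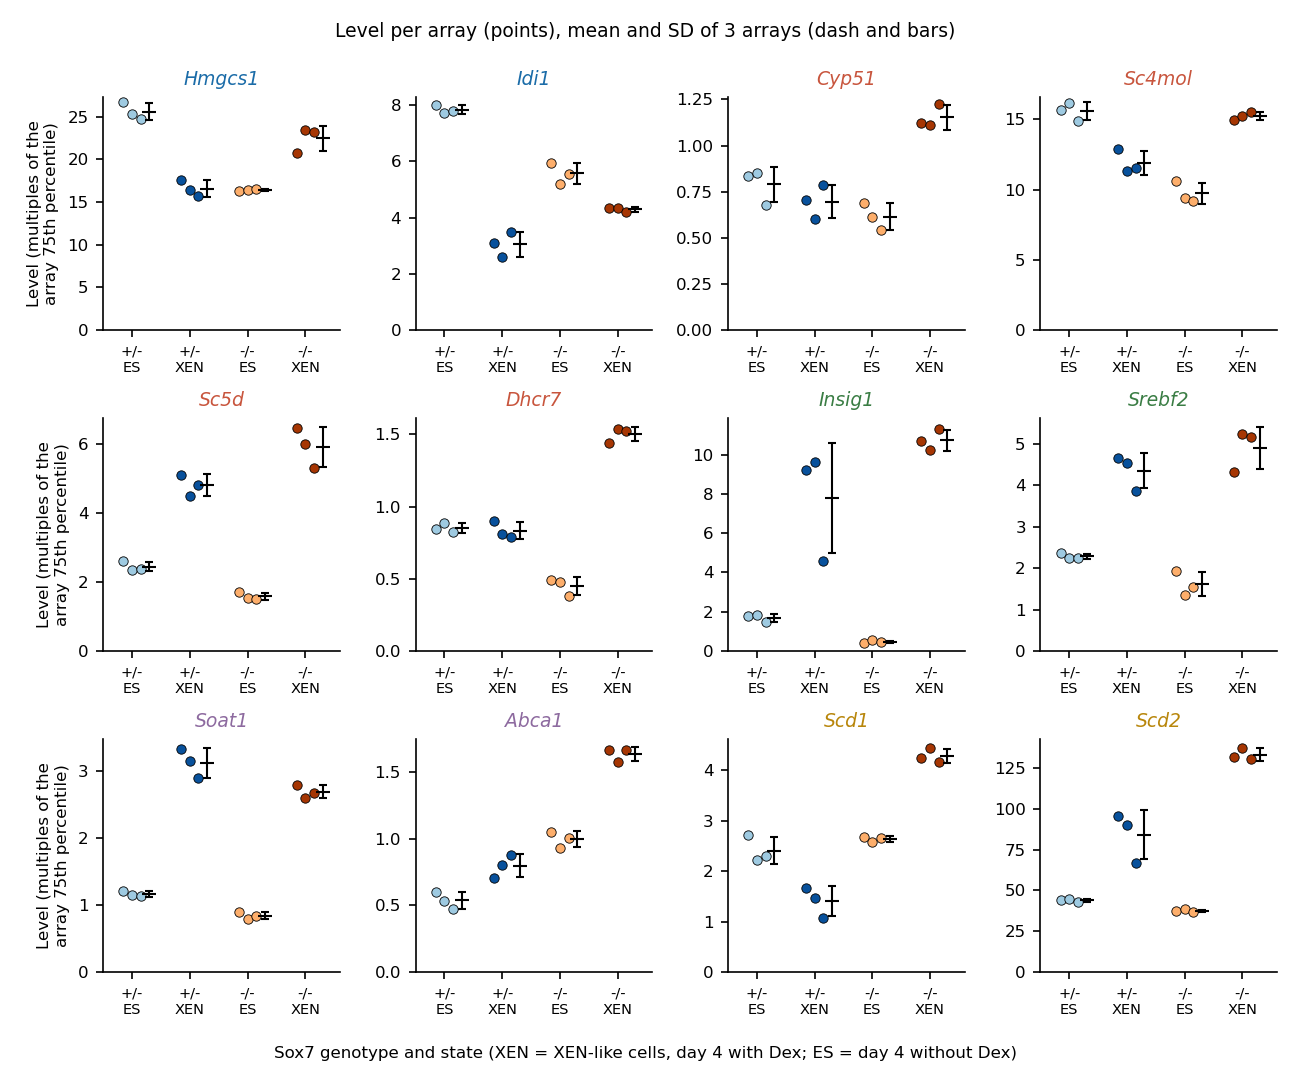
Level of 12 genes per array, as multiples of the 75th percentile of the array on a linear axis from 0, with the mean and SD of the 3 arrays of a group beside them. Title colours are those of the roles. The means of *Hmgcs1*, *Cyp51* and *Sc4mol* fall from ES to XEN-like cells in *Sox7* (+/−) and go up in *Sox7* (−/−), while *Insig1* spans 0.421 to 11.3 over the 12 arrays.

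All 5 genes of SREBP control were higher in XEN-like than in ES cells of both genotypes, at an adjusted p under 0.05 in each, against 38.5% and 34.4% of all genes. With spike-in scaling all 5 kept that direction, and 3 of the 5 passed the test in *Sox7* (+/−) cells. *Insig1*, which retains SREBP and is itself a known SREBP target, read 1.80, 1.81 and 1.46 in *Sox7* (+/−) ES cells, 9.24, 9.61 and 4.59 in *Sox7* (+/−) XEN-like cells, 0.421, 0.533 and 0.458 in *Sox7* (−/−) ES cells, and 10.68, 10.2 and 11.3 in *Sox7* (−/−) XEN-like cells. *Sox7* (+/−) XEN-like replicate 3 was the lowest XEN-like array, and the XEN-like arrays were above the ES arrays in both genotypes. Its rise was 4.40-fold (2.14 ± 0.24 on the log2 scale, adjusted p = 2.8e-05) in *Sox7* (+/−) cells and 22.9-fold (4.52 ± 0.24, adjusted p = 7.8e-08) in *Sox7* (−/−) cells. The difference of 2.38 ± 0.34 (adjusted p = 0.00078) was 2.03 ± 0.16 (adjusted p = 2.5e-05) without that replicate. It lay mostly in ES cells, where *Insig1* was lower without *Sox7* by −1.85 ± 0.24 (adjusted p = 0.00025), against 0.53 ± 0.24 (adjusted p = 0.12) in XEN-like cells. With slide as a block the ES difference was −1.83 (adjusted p = 0.035).

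*Insig2*, its homologue, differed between the genotypes by its brighter probe only. This probe read 2.46, 2.398 and 2.31 in *Sox7* (+/−) ES cells, 6.92, 6.81 and 6.77 in *Sox7* (+/−) XEN-like cells, 3.31, 3.36 and 3.29 in *Sox7* (−/−) ES cells, and 7.03, 6.73 and 6.39 in *Sox7* (−/−) XEN-like cells. The XEN-like groups overlapped and the ES groups did not. Its rise was 1.52 ± 0.06 (adjusted p = 9.8e-09) in *Sox7* (+/−) cells and 1.02 ± 0.06 (adjusted p = 1.4e-07) in *Sox7* (−/−) cells, a difference of −0.50 ± 0.08 (adjusted p = 0.0019). The second probe, above background on all 12 arrays, rose by 1.27 and 1.09, and its difference of −0.18 did not pass the test (adjusted p = 0.29). The rise in *Sox7* (−/−) cells fell under 2-fold in 7 alternatives, at 0.89 to 0.99.

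*Srebf2*, which encodes the SREBP of cholesterol synthesis, read 2.36, 2.25 and 2.25 in *Sox7* (+/−) ES cells, 4.67, 4.55 and 3.87 in *Sox7* (+/−) XEN-like cells, 1.94, 1.36 and 1.55 in *Sox7* (−/−) ES cells, and 4.32, 5.24 and 5.17 in *Sox7* (−/−) XEN-like cells. XEN-like arrays of the genotypes overlapped, and each was above every ES array. The rise was 0.93 ± 0.13 (adjusted p = 1.6e-04) and 1.61 ± 0.13 (adjusted p = 2.0e-06). *Srebf1*, which encodes the SREBP of fatty acid synthesis, was dim, with 0.158, 0.1302 and 0.231 in *Sox7* (+/−) ES cells, 0.404, 0.465 and 0.319 in *Sox7* (+/−) XEN-like cells, 0.173, 0.181 and 0.153 in *Sox7* (−/−) ES cells, and 0.480, 0.486 and 0.420 in *Sox7* (−/−) XEN-like cells. The genotypes overlapped in both states. Its rise of 1.22 ± 0.20 (adjusted p = 4.0e-04) and 1.45 ± 0.20 (adjusted p = 9.7e-05) was under 2-fold with normexp background correction, at 0.71 and 0.78. *Scap*, the escort protein, rose by 0.52 ± 0.06 (adjusted p = 4.3e-05) and 0.93 ± 0.06 (adjusted p = 4.2e-07).

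Of the 10 genes of cholesterol transport and storage, 9 were tested. *Soat1*, which esterifies cholesterol for storage, read 1.21, 1.15 and 1.13 in *Sox7* (+/−) ES cells, 3.33, 3.14 and 2.89 in *Sox7* (+/−) XEN-like cells, 0.890, 0.797 and 0.838 in *Sox7* (−/−) ES cells, and 2.795, 2.60 and 2.68 in *Sox7* (−/−) XEN-like cells. *Sox7* (−/−) arrays were below the *Sox7* (+/−) arrays of the same state without overlap. In XEN-like cells this was a difference of −0.21, which lay between −0.28 and 0.14 over the alternatives. *Soat1* rose with Dex by 1.42 ± 0.08 (adjusted p = 8.3e-08) and 1.68 ± 0.08 (adjusted p = 1.9e-08). The difference of these responses, 0.25 ± 0.11, did not pass the test (adjusted p = 0.10). *Npc1*, which exports cholesterol from lysosomes, read 0.860, 0.872 and 0.804 in *Sox7* (+/−) ES cells, 2.31, 2.42 and 1.51 in *Sox7* (+/−) XEN-like cells, 0.832, 1.06 and 0.968 in *Sox7* (−/−) ES cells, and 2.79, 2.67 and 3.02 in *Sox7* (−/−) XEN-like cells. The ES groups overlapped, and all XEN-like arrays were above them. It rose by 1.27 ± 0.17 (adjusted p = 7.6e-05) and 1.57 ± 0.17 (adjusted p = 1.3e-05). *Npc2*, its lysosomal partner, rose by 0.99 ± 0.10 (adjusted p = 8.6e-06) and 0.77 ± 0.10 (adjusted p = 4.9e-05).

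*Abcg1*, a sterol exporter, read 3.27, 3.25 and 3.15 in *Sox7* (+/−) ES cells, 0.170, 0.179 and 0.0387 in *Sox7* (+/−) XEN-like cells, 4.26, 4.33 and 4.42 in *Sox7* (−/−) ES cells, and 0.230, 0.220 and 0.191 in *Sox7* (−/−) XEN-like cells. The lowest array, *Sox7* (+/−) XEN-like replicate 3, was not above background. The fall was −4.93 ± 0.46 (adjusted p = 6.7e-06), or −4.21 without that replicate, in *Sox7* (+/−) cells and −4.35 ± 0.46 (adjusted p = 1.4e-05) in *Sox7* (−/−) cells. *Abca1*, the other LXR-driven exporter of the list, read 0.603, 0.535 and 0.474 in *Sox7* (+/−) ES cells, 0.707, 0.805 and 0.879 in *Sox7* (+/−) XEN-like cells, 1.05, 0.931 and 1.004 in *Sox7* (−/−) ES cells, and 1.66, 1.58 and 1.66 in *Sox7* (−/−) XEN-like cells. It was higher without *Sox7* in both states, by 0.90 ± 0.11 (adjusted p = 1.3e-04) in ES cells and 1.04 ± 0.11 (adjusted p = 7.1e-05) in XEN-like cells. The latter was under 2-fold in 4 alternatives, at 0.81 to 0.98. Its Dex responses of 0.57 ± 0.11 and 0.72 ± 0.11 differed by 0.15 ± 0.15, which did not pass the test (adjusted p = 0.51).

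*Nr1h3*, which encodes LXRα, read 0.213, 0.168 and 0.181 in *Sox7* (+/−) ES cells, 0.0761, 0.0764 and 0.0569 in *Sox7* (+/−) XEN-like cells, 0.190, 0.297 and 0.229 in *Sox7* (−/−) ES cells, and 0.167, 0.114 and 0.129 in *Sox7* (−/−) XEN-like cells. It was not well above background on any *Sox7* (+/−) XEN-like array. The fall with Dex in *Sox7* (+/−) cells was −1.43 (adjusted p = 1.1e-04). It was 2.52-fold with these dim arrays raised to the lowest signal above background on each array. In *Sox7* (−/−) cells *Nr1h3* changed by −0.80 (adjusted p = 0.0046), and the difference of 0.63 did not pass the test (adjusted p = 0.12). The call in *Sox7* (+/−) cells was lost with normexp background correction, at −0.24, and a dimmer probe gave −0.63 there. *Nr1h2*, which encodes LXRβ, changed by −0.09 and −0.16 with Dex and was higher without *Sox7* by 0.39 ± 0.06 (adjusted p = 0.00065) in ES cells and 0.32 ± 0.06 (adjusted p = 0.0034) in XEN-like cells. *Stard4*, a cytosolic sterol carrier, rose by 1.18 ± 0.14 (adjusted p = 3.2e-05) in *Sox7* (−/−) cells, with 0.35 ± 0.14 (adjusted p = 0.050) in *Sox7* (+/−) cells. Its responses differed by 0.83 (adjusted p = 0.012). A dimmer *Stard4* probe, above background on all 12 arrays, rose by 1.73 in *Sox7* (−/−) cells and by 0.66 in *Sox7* (+/−) cells (adjusted p = 2.7e-07 and 0.00043). By that probe the responses differed by 1.07 (adjusted p = 0.00082), past 2-fold. *Scarb1*, the HDL receptor, fell by 0.49 ± 0.10 (adjusted p = 0.0022) in *Sox7* (+/−) cells, and in *Sox7* (−/−) cells the difference was −0.24 ± 0.10 (adjusted p = 0.069). These responses of *Scarb1* differed by 0.25, which did not pass the test (adjusted p = 0.23). Its second probe, above background on all 12 arrays, gave responses of 0.06 (adjusted p = 0.78) and 0.23 (adjusted p = 0.23).

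Of the 6 genes of lipogenesis, the desaturases responded and fatty acid synthase did not pass any test. *Scd1*, which introduces the double bond of oleate, read 2.71, 2.21 and 2.29 in *Sox7* (+/−) ES cells, 1.67, 1.47 and 1.08 in *Sox7* (+/−) XEN-like cells, 2.68, 2.57 and 2.65 in *Sox7* (−/−) ES cells, and 4.24, 4.44 and 4.17 in *Sox7* (−/−) XEN-like cells. The ES groups overlapped, and the XEN-like groups lay on either side of them. It changed by −0.79 ± 0.14 (adjusted p = 7.1e-04) and 0.70 ± 0.14 (adjusted p = 0.0014), a difference of 1.49 ± 0.20 (adjusted p = 4.9e-04). Its level was higher without *Sox7* by 1.63 ± 0.14 in XEN-like cells (adjusted p = 2.5e-05), and by 1.64 among the arrays of slide 2 (adjusted p = 0.023). *Scd2*, the related desaturase of embryonic tissues, read 44.4, 44.6 and 43.0 in *Sox7* (+/−) ES cells, 95.5, 90.2 and 66.9 in *Sox7* (+/−) XEN-like cells, 37.5, 38.3 and 37.0 in *Sox7* (−/−) ES cells, and 132, 138 and 130.3 in *Sox7* (−/−) XEN-like cells. It rose without overlap in both genotypes, by 0.92 ± 0.11 (adjusted p = 5.5e-05) and 1.83 ± 0.11 (adjusted p = 2.4e-07).

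*Fasn*, fatty acid synthase, read 0.634, 0.688 and 0.583 in *Sox7* (+/−) ES cells, 0.535, 0.558 and 0.926 in *Sox7* (+/−) XEN-like cells, 0.690, 0.655 and 0.836 in *Sox7* (−/−) ES cells, and 0.709, 0.559 and 0.748 in *Sox7* (−/−) XEN-like cells. All groups overlapped, and its differences lay between −0.16 and 0.19 in the 5 comparisons with SEs of 0.20 to 0.29. *Elovl6*, which elongates palmitate, read 14.6, 14.3 and 13.4 in *Sox7* (+/−) ES cells, 7.90, 7.12 and 11.1 in *Sox7* (+/−) XEN-like cells, 22.1, 20.1 and 21.8 in *Sox7* (−/−) ES cells, and 7.71, 7.37 and 7.10 in *Sox7* (−/−) XEN-like cells. It was higher in ES than in XEN-like cells of both genotypes and fell with Dex by 0.72 ± 0.14 (adjusted p = 0.0010) and 1.53 ± 0.14 (adjusted p = 3.8e-06). Its Dex response was lower in *Sox7* (−/−) cells by −0.80 ± 0.19 (adjusted p = 0.013). *Acaca*, acetyl-CoA carboxylase, fell in both genotypes by 0.74 ± 0.10 and 0.52 ± 0.10 (adjusted p = 1.2e-04 and 0.0012) by its brightest probe. In *Sox7* (−/−) cells its dimmer probes gave −0.57 (adjusted p = 0.002), −0.30 (adjusted p = 0.2) and −0.14 (adjusted p = 0.62). *Acly*, which supplies cytosolic acetyl-CoA, rose by 0.46 ± 0.12 (adjusted p = 0.0058) and 0.66 ± 0.12 (adjusted p = 4.9e-04), but its second probe gave −0.83 and 0.13.

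Other genes of the same pathways were counted from lists of SREBP activation and sterol handling (13 of 14 tested), fatty acid supply and modification (21 of 22), glycerolipids (10) and the isoprenoid branch (6). The difference of the Dex responses was called higher in 3, 4, 1 and 0 of them and lower in 0, 1, 0 and 0, against 7.04% and 3.16% of all genes, so that the last 2 lists lay near or below the share of all genes. Those called higher were *Cyp27a1*, *Mylip*, *Osbpl5*, *Acsl3*, *Fads2*, *Fads3*, *Me1* and *Dgat2*, and the gene called lower was *Elovl4*. *Acsl3*, which activates fatty acids, read 2.397, 2.25 and 2.26 in *Sox7* (+/−) ES cells and 1.23, 0.896 and 1.03 in *Sox7* (+/−) XEN-like cells. It read 1.85, 1.73 and 1.74 in *Sox7* (−/−) ES cells, and 2.51, 3.13 and 2.74 in *Sox7* (−/−) XEN-like cells. Its responses of −1.14 and 0.65 differed by 1.79 (adjusted p = 4.1e-05). *Mylip*, an LXR target that degrades lipoprotein receptors, differed by 1.16 (adjusted p = 0.00025), *Osbpl5*, an oxysterol-binding protein, by 1.75 (adjusted p = 5.3e-05), and *Me1*, which supplies NADPH for lipogenesis, by 1.01 (adjusted p = 0.00025). *Me1* was lower without *Sox7* in ES cells by −1.04 (adjusted p = 1.2e-05) and gave −0.03 in XEN-like cells. *Lipa*, the lysosomal lipase, and *Vldlr*, a lipoprotein receptor, were called higher with Dex in both genotypes, *Lipa* by 1.32 and 1.90 and *Vldlr* by 1.32 and 1.26.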

How the data were processed

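Total RNA of 12 samples, 3 in each of 4 groups, was hybridized to 1-colour Agilent mouse arrays, 1 array each. Per the file headers, the authors extracted spot intensity values with Feature Extraction (version 10.7.3.1), which subtracts background. The deposited table holds the mean signal of each spot, unscaled, within 0.4975% of the scanner files, and was used as an alternative. Here, log2 of the deposited processed intensity minus the 75th percentile of the array was taken, spots of a probe were averaged after leaving out outlier-flagged spots, and a probe was kept if some group had it clearly over background on each of its 3 arrays. This scaling sets changes relative to the bulk of the probes, so a change shared by most genes would not be seen. Array number limits precision.

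A model with 1 mean per group was fitted to all 12 arrays with limma (version 3.58.1, R 4.3.3), and p-values were adjusted by the Benjamini-Hochberg method over 25950 probes. A gene was read by its brightest tested probe (13 members had several), and the steps were tested on simulated data. Probe gene names are those of the array design. Per-array values are given for the 4 called members that rose most and the 4 that fell most in each comparison of 2 groups, those called in the difference between genotypes, and 11 fixed by role (*Hmgcs1*, *Sqle*, *Fdft1*, *Srebf1*, *Srebf2*, *Insig1*, *Abca1*, *Soat1*, *Fasn*, *Scd1*, *Scd2*). Other genes were named with earlier results known or after their values were seen. The members and lists were chosen with earlier results of these data known. Marker lists were those of ES cells, extraembryonic, visceral and parietal endoderm, trophectoderm and fibroblasts, the last with summed levels of 3.66 to 4.55 in ES cells and 0.48 to 0.835 in XEN-like cells. Replicate numbers were not taken to pair arrays, since the correlation of deviations between same-numbered arrays was −0.05 to 0.13. Alternatives were other background correction, scalings, filters, probe rule, variance model, slide or replicate block, the arrays of a slide, only the groups compared, and leaving out each array.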

Additional observations from a re-analysis of the deposited data

Results flagged for a closer look

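The response to Dex differed between *Sox7* (−/−) and *Sox7* (+/−) cells by a direct test of the difference in 7 genes. On the log2 scale this difference was 2.38 for *Insig1*, 1.78 for *Dhcr7*, 1.49 for *Scd1*, 1.09 for *Cyp51*, 1.08 for *Hmgcs1*, 1.04 for *Sc4mol* and 1.001 for *Idi1*, each past 2-fold with a Benjamini-Hochberg adjusted p under 0.05 in limma. In *Hmgcs1*, *Sc4mol* and *Scd1* the response passed the test in opposite directions in the genotypes. In *Idi1* it was a fall in both, and in *Insig1* a rise in both. The difference fell under 2-fold in 8 alternatives for *Idi1*, in 3 for *Cyp51* and in 1 for *Hmgcs1*.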

How the results depend on the processing

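Of 105 values of named members, 29 were called, 18 of these under every alternative, and 11 were lost under at least 1. Another 51 were called under at least 1, many of them only where no minimum fold was required. In 0 cases did a called value change sign or an uncalled value become called in the opposite direction. Some uncalled values did change sign, as *Soat1* between XEN-like cells, with −0.21 in the main fit and 0.14 at the highest. With no minimum fold, the members called higher and lower were 13 and 16 for Dex in *Sox7* (+/−) cells, 24 and 7 for Dex in *Sox7* (−/−) cells, 20 and 1 between XEN-like cells, 6 and 18 between ES cells, and 19 and 2 for the difference in response. Spike-in scaling gave 2 and 12 for Dex in *Sox7* (+/−) cells, 4 higher between XEN-like cells, 2 lower between ES cells and 16 higher for the difference in response, and 16 synthesis enzymes that fell with Dex in *Sox7* (+/−) cells. The deposited table gave 1 and 9 for Dex in *Sox7* (+/−) cells, 6 higher between XEN-like cells (1 when scaled by the 75th percentile, a setting chosen after seeing the data), 16 higher for the difference, and 7 enzymes lower between ES cells. Normexp and median scaling each gave 1 higher between XEN-like cells. Requiring signal on all 12 arrays gave 1 lower with Dex in each genotype, as it left 37 members to test, without *Abcg1* and *Nr1h3*. Slide as a block gave 5 enzymes lower between ES cells, and the arrays of slide 2 gave 3 higher between XEN-like cells, where fewer arrays entered. The cause of the other changes was not tested. Leaving out each array gave 5 to 8 higher and 3 to 4 lower for Dex in *Sox7* (+/−) cells, 9 to 10 and 2 to 2 in *Sox7* (−/−) cells, 2 to 4 and 0 to 0 between XEN-like cells, 0 to 0 and 1 to 2 between ES cells, and 5 to 9 and 0 to 0 for the difference. The enzymes numbered 10 to 10, 10 to 12, 8 to 13, 11 to 13 and 13 to 15 in the same order. The count was 4 between XEN-like cells without *Sox7* (+/−) XEN-like replicate 2, adding *Abcg1* and *Nr1h3*, and 2 between ES cells without *Sox7* (−/−) ES replicate 1, adding *Dhcr7*. With the replicate number as a block the members called higher and lower were 5 and 3, 10 and 2, 2 and 0, 0 and 1, and 7 and 0 in the same order. ES cells of the genotypes could not be compared within a slide. The dim probes of *Srebf1* and *Nr1h3* gave 0.71 and −0.24 for Dex in *Sox7* (+/−) cells under normexp, against 1.22 and −1.43.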
